A study of Arabidopsis thaliana with 6 samples.

Results

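Calmodulin-like (CML) genes encode calcium sensors of plants, and 8 of them were followed in seedlings of actin2-5 and of wild type. The set holds every probe set that is assigned to a single gene whose symbol is CML and a number. This gave CML23, CML30, CML37, CML38, CML41, CML42 and CML43. AT5G39670, known as CML46, has only a locus name as its symbol and was added by its locus. The set is 8 genes among 13356 with a single-gene probe set, each read by 1 probe set. Other CML genes whose symbol is only a locus name are treated further below. Among them is AT1G76640, for which RefSeq gives CML39 as a synonym and not as the symbol.

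Expression was measured on 6 Affymetrix ATH1 arrays with total RNA of whole Arabidopsis thaliana seedlings, 1 array per sample. The actin2-5 group, 3 samples, carries a mutant allele of the actin gene ACT2 and is also called wavy. The wild-type group, 3 samples, is Columbia. The labels do not name an ecotype for the mutant. All seedlings were 8 days old and had grown on diluted Murashige and Skoog medium. The submitters call the samples of a group biological replicates but do not describe separate growth, so p-values measure the spread between these samples. A whole seedling mixes many cell types, so a higher level per cell and more cells of a kind cannot be told apart.

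When a plant is touched, wounded or attacked, calcium enters the cytosol in short pulses. Calmodulin and its relatives bind this calcium through EF-hand loops, change shape and then bind target proteins. CML proteins differ from calmodulin in sequence and in the number of loops, and many of their genes are themselves induced by stress. AT5G39670 is known for a part in salicylate-linked immunity, CML41 for callose deposition at plasmodesmata after perception of bacterial flagellin, and CML38 for responses to wounding and low oxygen. CML37 and CML42 are known from the response to herbivores, where they act in opposite directions, CML43 from the response to bacterial pathogens, CML23 from nitric oxide levels and flowering time, and CML30 as a protein of mitochondria. The sequences of the genes and of their proteins were not analysed here.

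AT5G39670, CML41 and CML38 were higher in actin2-5, 3 of the 8 genes, and 0 of the 8 were lower. AT5G39670 was 3.05-fold higher (95% interval 2.21 to 4.19), CML41 1.85-fold (1.54 to 2.24) and CML38 1.52-fold (1.29 to 1.80). The other 5 genes did not pass the test, which was limma's moderated test over all 22746 probe sets with a Benjamini-Hochberg adjusted p under 0.05. Over all 13356 genes 2.74% passed, with 1.75% higher and 0.988% lower, and over all probe sets 3.30%. The median log2 difference, actin2-5 minus wild type, was 0.17 over the 8 genes and -0.03 over all genes. In 4 of the 8 genes all actin2-5 arrays lay above all wild-type arrays, a separation seen in 7.18% of all genes. In 0 of the 8 did they all lie below, against 10.8% of all genes. The members were chosen with earlier results of these data known, AT5G39670 by its locus. The counts and medians set beside all genes therefore carry no test.

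**Figure D1:**
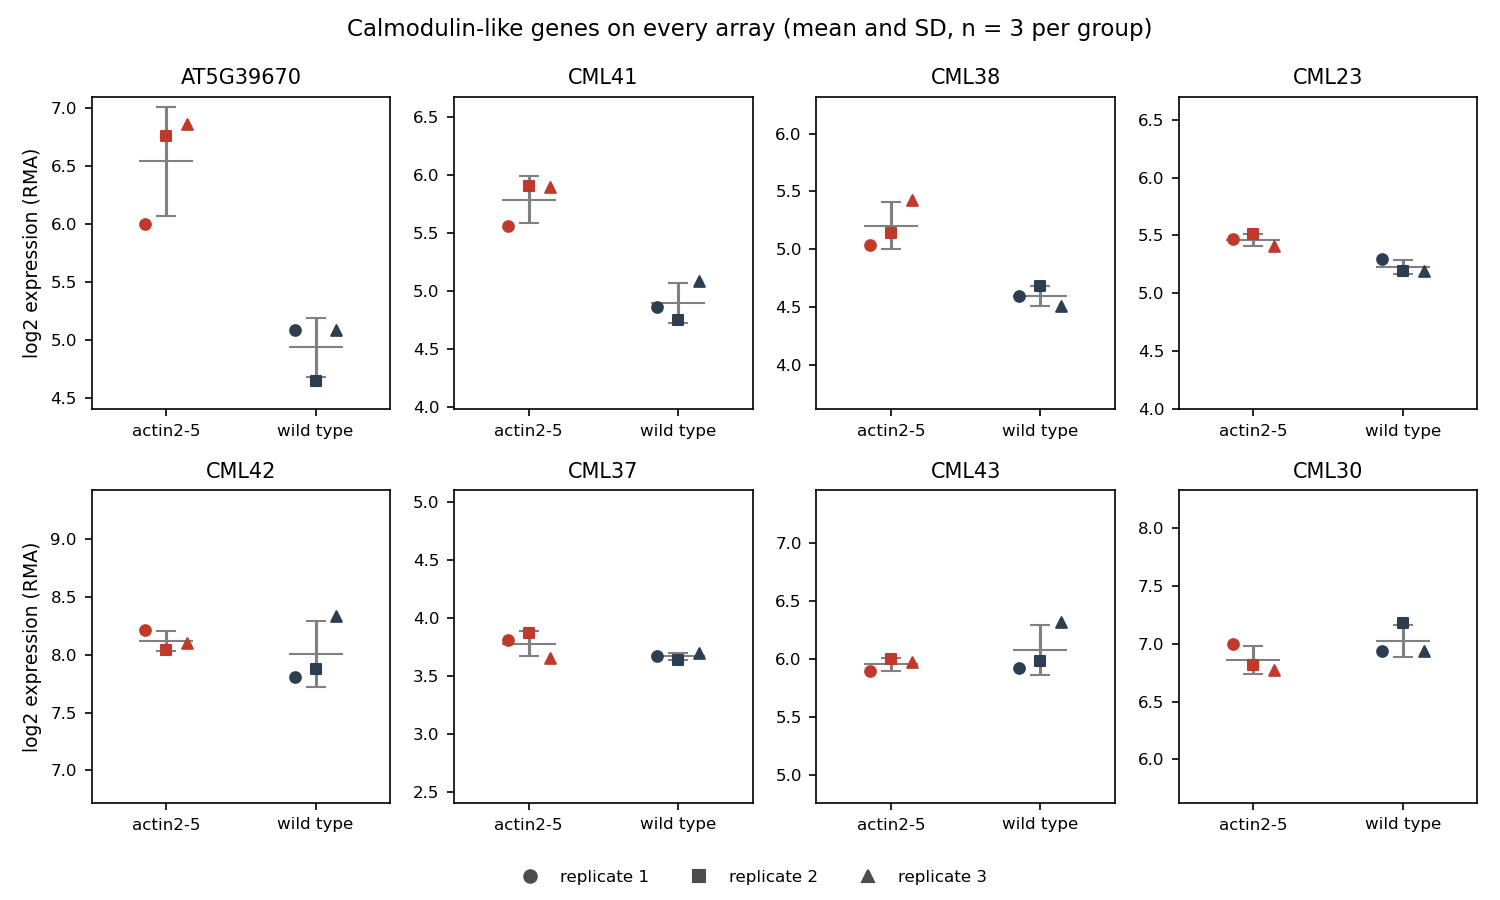
Log2 expression of the 8 calmodulin-like genes on each array, 3 actin2-5 arrays left and 3 wild-type arrays right in each panel; bars give the mean and SD, and every panel spans the same log2 range. AT5G39670 is at 6.0 to 6.86 in actin2-5 and 4.64 to 5.08 in wild type, and CML23, CML38 and CML41 are also separated, while the groups overlap in CML30, CML37, CML42 and CML43.

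AT5G39670, known for a part in salicylate-linked immunity, changed most in the set. Its log2 values were 6.0, 6.76 and 6.86 on actin2-5 arrays 1, 2 and 3, and 5.08, 4.64 and 5.08 on the wild-type arrays. Array 1 was the lowest of the mutant arrays, yet it lay 0.92 above the highest wild-type array. The actin2-5 mean was 6.54 ± 0.47 and the wild-type mean 4.93 ± 0.25 (SD, n = 3 each). The log2 difference was 1.61 ± 0.21 (SE; limma adjusted p = 0.00231), which ranks 28th among the increases of all 22746 probe sets.

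CML41, the plasmodesmal gene, separated the groups with a smaller step. It read 5.56, 5.91 and 5.90 on actin2-5 arrays 1, 2 and 3, and 4.86, 4.75 and 5.09 in wild type. As for AT5G39670, array 1 was the lowest of the mutant arrays, and the gap to the highest wild-type array was 0.47. The log2 difference was 0.89 ± 0.12 (SE; limma adjusted p = 0.00316), from an actin2-5 mean of 5.79 ± 0.20 and a wild-type mean of 4.90 ± 0.17 (SD, n = 3 each).

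CML38, the wound and low-oxygen gene, read 5.04, 5.14 and 5.43 on actin2-5 arrays 1, 2 and 3, and 4.60, 4.68 and 4.51 in wild type. Its highest mutant array was array 3, and the groups were 0.36 apart. The log2 difference was 0.61 ± 0.11 (SE; limma adjusted p = 0.014), from an actin2-5 mean of 5.20 ± 0.20 and a wild-type mean of 4.60 ± 0.09 (SD, n = 3 each). The wild-type values lie close to the arrays' lower quartiles of 4.50 to 4.58, where RMA, the normalization used by the authors, understates changes. Those of AT5G39670, at 4.64 to 5.08, and CML41, at 4.75 to 5.09, lie not far above these quartiles, so the same limit may touch their folds. The call of CML38 was lost without actin2-5 replicate 2 (limma adjusted p = 0.0615) or 3 (0.0612) and without wild-type replicate 3 (0.0561), at log2 differences of 0.64, 0.49 and 0.56.

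Among the genes that did not pass, CML23 came nearest. It read 5.47, 5.51 and 5.41 in actin2-5 and 5.30, 5.19 and 5.19 in wild type. The groups did not overlap, by a gap of 0.11, and the log2 difference of 0.24 ± 0.08 (SE) had a limma adjusted p of 0.181. The 95% interval of its fold, not adjusted for the number of probe sets, was 1.04 to 1.34, below the 1.85-fold measured for CML41. Its wild-type values, like those of CML41, lie not far above the lower quartiles, where RMA may understate changes. A larger increase is therefore not excluded.

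The herbivory genes CML37 and CML42 had the same log2 difference of 0.11, with overlapping groups. CML42 read 8.21, 8.04 and 8.10 in actin2-5 and 7.81, 7.88 and 8.33 in wild type, where replicate 3 was the highest of all 6 arrays (SE 0.13; limma adjusted p = 0.758). CML37 read 3.81, 3.87 and 3.66 in actin2-5 and 3.67, 3.64 and 3.70 in wild type (SE 0.09; limma adjusted p = 0.612). It lay under the lower quartile on all 6 arrays, so a missing call says little about a change. For CML42 the 95% interval of the fold ran from 0.882 to 1.32.

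CML43, known from the response to bacterial pathogens, and CML30 had log2 differences below 0 that did not pass. CML43 read 5.89, 6.0 and 5.97 in actin2-5 and 5.92, 5.98 and 6.32 in wild type, a difference of -0.12 ± 0.11 (SE; limma adjusted p = 0.678). It was at 0.0033 without wild-type replicate 3, its highest array. CML30 read 7.0, 6.82 and 6.77 in actin2-5 and 6.94, 7.18 and 6.94 in wild type, a difference of -0.16 ± 0.10 (SE; limma adjusted p = 0.522). The intervals of their folds were 0.776 to 1.09 for CML43 and 0.768 to 1.05 for CML30.

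**Figure D2:**
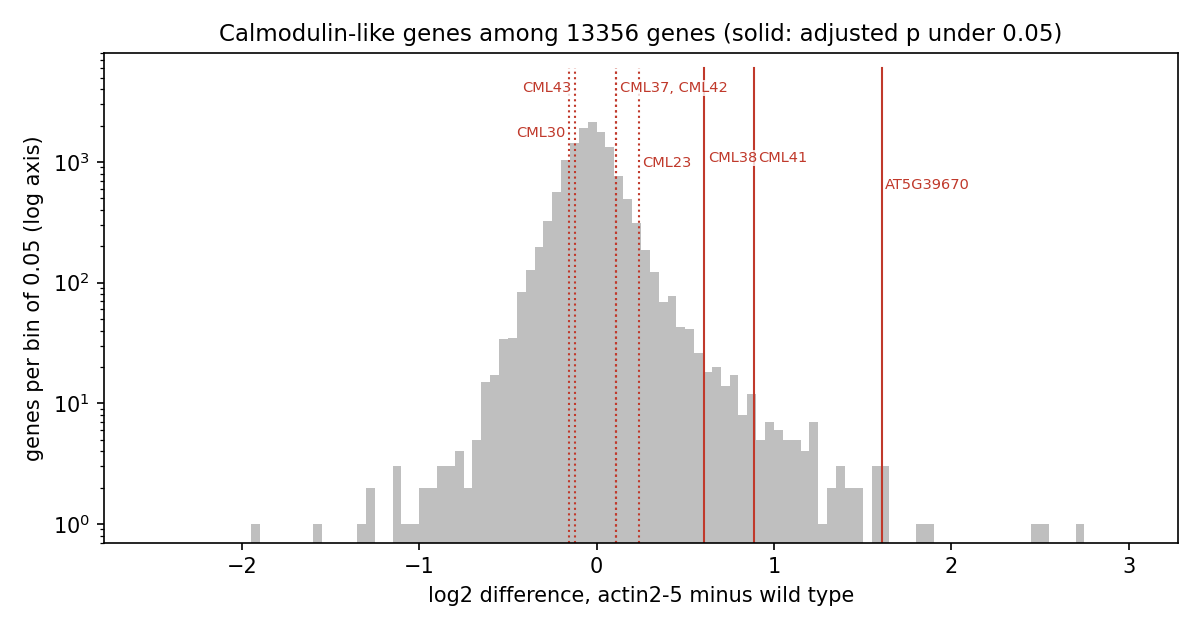
Histogram of the log2 difference, actin2-5 minus wild type, over 13356 genes (grey, log count axis), with the 8 calmodulin-like genes as lines, solid where the adjusted p was under 0.05. AT5G39670 at 1.61 lies far out in the right tail, CML41 at 0.89 and CML38 at 0.61 on its slope, and the other 5 between -0.16 and 0.24.

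The mutant arrays were not alike in a control for 25S ribosomal RNA. Its log2 value was 10.63 on actin2-5 array 1, 7.75 on array 2 and 9.82 on array 3, while the wild-type arrays lay between 8.13 and 8.21. On array 2, with the low 25S reading, AT5G39670, CML41 and CML38 lay 1.83, 1.01 and 0.54 above their wild-type means. The log2 differences with the 25S value as a covariate were 1.85 ± 0.23 for AT5G39670, 1.01 ± 0.15 for CML41 and 0.61 ± 0.15 for CML38 (SE; limma adjusted p = 0.00628, 0.0123 and 0.11), so AT5G39670 and CML41 kept their calls and CML38 did not. With arrays 1 and 3 left out, which leaves 1 mutant array that is assumed to vary like wild type, AT5G39670 alone of the 8 passed (limma adjusted p = 0.0169), and CML41 and CML38 had adjusted p of 0.0785 and 0.348.

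Whole-seedling markers were present on every array. The leaf and cotyledon genes LHCB4.1, LHCB4.2, RCA and PRK lay at 12.06 to 14.08. PYK10 and NAI2, listed here as root genes, lay at 9.89 to 13.46. Of these 6 genes 0 were called, which says little where 2.74% of all genes were. The groups did not overlap in LHCB4.2 and NAI2, lower in actin2-5 by gaps of 0.04 and 0.05, or in PYK10, higher by 0.01. They overlapped in LHCB4.1, RCA and PRK. Over all genes 10.8% lay wholly lower and 7.18% wholly higher. The log2 differences of NAI2 and PYK10 had opposite signs, at -0.27 and 0.09 (limma adjusted p = 0.255 and 0.644). Whether these 2 genes mark root alone in a whole seedling was not tested. The root hair genes EXPA7 and EXPA18 were lower in actin2-5, by 0.86 and 0.95 on the log2 scale (limma adjusted p = 0.00909 and 0.00636), and their part in the values above was not tested. The mutated gene ACT2 was not analysed here and gives no check of the labels. Array medians were 6.43 to 6.465, and correlations over all probe sets were 0.9902 to 0.9947 between the groups. They were 0.9967 to 0.9980 within actin2-5 and 0.9938 to 0.9954 within wild type, a range that overlaps the one between groups.

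**Figure D3:**
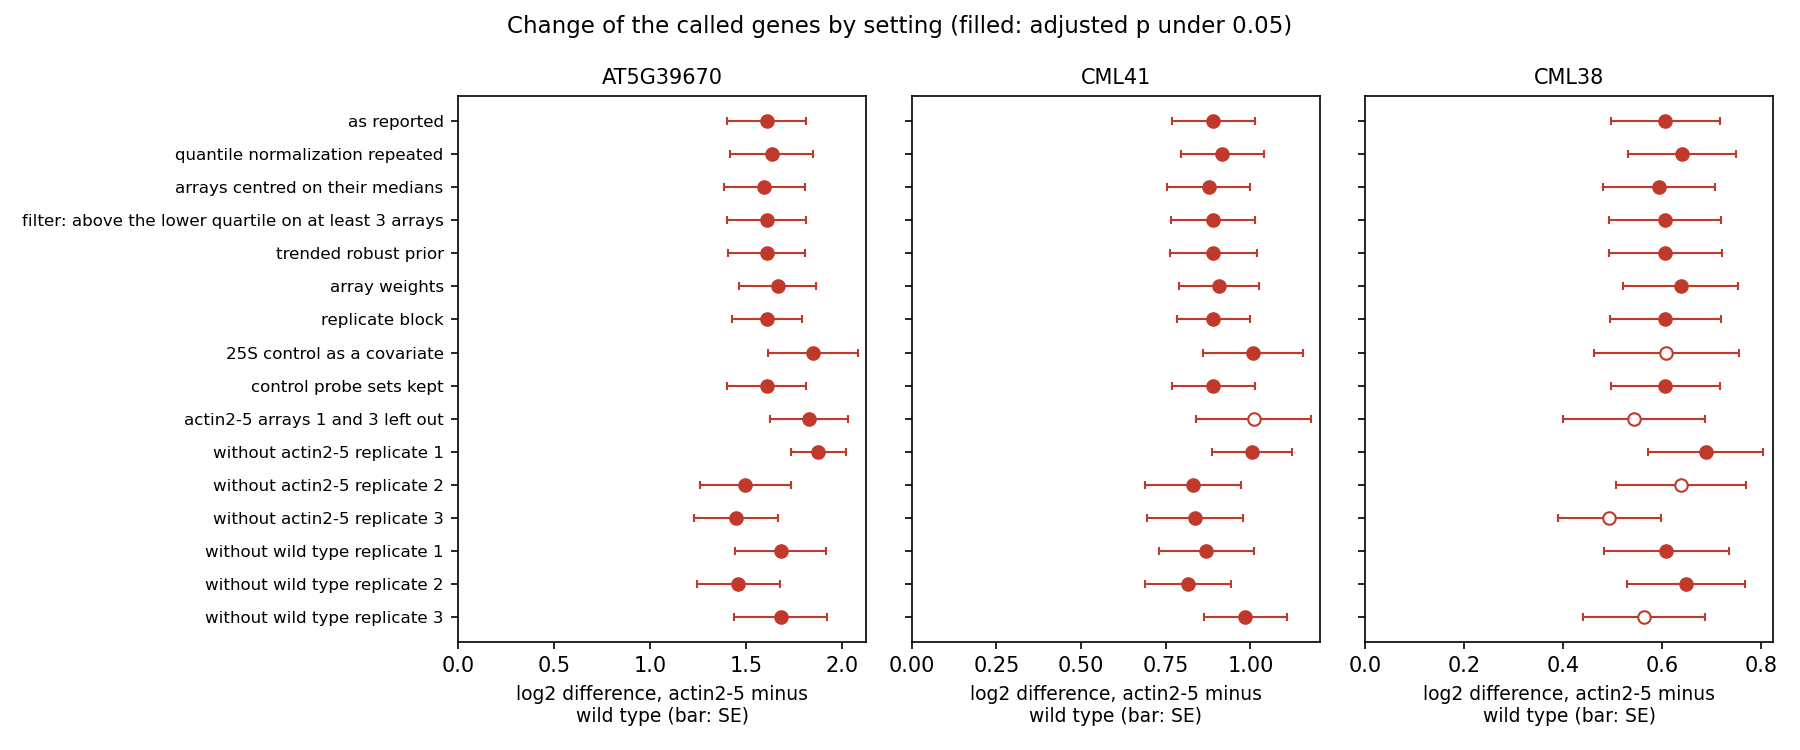
Log2 difference, actin2-5 minus wild type, with its SE for the 3 called genes as reported and under 15 other settings; filled points had an adjusted p under 0.05, and each panel has its own horizontal scale starting at 0. AT5G39670 is filled throughout, CML41 in all but 1 setting, and CML38 is open in 5, among them the 25S covariate at 0.61.

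A wider list of CML loci was drawn up by locus from general knowledge of the family, with the 8 genes above left out. It holds 42 loci, of which 28 have a probe set named here. RefSeq's table gives a CML name to 1 of the 28, AT1G76640, which has CML39 as a synonym there, so the others are given by locus without a role. Of the 28, 5 were higher in actin2-5, 0 were lower and 23 did not pass, against 2.74% of all genes called. Their median log2 difference was 0.04, against -0.03 over all genes. Counted with the 8 genes above, 8 of 36 were called, all of them higher, where 1.75% of all genes were higher. The list was chosen with earlier results of these data known, so this count carries no test.

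AT3G47480 changed most among these loci. It read 5.88, 6.67 and 6.58 on actin2-5 arrays 1, 2 and 3, and 5.15, 4.75 and 5.05 in wild type, a log2 difference of 1.39 ± 0.19 (SE; limma adjusted p = 0.00303). As for AT5G39670, array 1 was the lowest of the mutant arrays and array 2 the lowest of wild type. AT3G01830 read 4.66, 5.45 and 5.39 in actin2-5 and 4.06, 4.30 and 4.07 in wild type, a log2 difference of 1.02 ± 0.18 (SE; limma adjusted p = 0.0131). Again array 1 was the lowest mutant array. All 3 wild-type values lie under the arrays' lower quartiles and all 3 actin2-5 values above them, so this dim gene passes a filter on low values only through the mutant group, and the size of its change is uncertain. The call of AT3G01830 was lost without actin2-5 replicate 2 (limma adjusted p = 0.075) or 3 (0.0778) and without wild-type replicate 3 (0.0567).

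The bright locus AT2G41090 read 10.96, 11.30 and 11.21 in actin2-5 and 10.24, 10.31 and 10.48 in wild type, a log2 difference of 0.81 ± 0.11 (SE; limma adjusted p = 0.00276). It stayed called in 15 of 16 other settings and missed the threshold with actin2-5 arrays 1 and 3 left out (limma adjusted p = 0.065). AT2G41410 and AT3G25600 were higher by 0.54 ± 0.10 and 0.51 ± 0.10 on the log2 scale (SE; limma adjusted p = 0.0186 and 0.0226). AT3G25600 is named here after its value was seen, to complete the 5. Both were near the threshold: AT2G41410 missed it without actin2-5 replicate 1, 2 or 3 (limma adjusted p = 0.0696, 0.111 and 0.0576) or wild-type replicate 2 (0.0527), and AT3G25600 without actin2-5 replicate 1, 2 or 3 (0.0831, 0.103 and 0.0993) or wild-type replicate 1 or 3 (0.0564 and 0.0798). Both also missed it with the 25S covariate (limma adjusted p = 0.126 for AT2G41410 and 0.175 for AT3G25600) and with actin2-5 arrays 1 and 3 left out (0.443 and 0.611).

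Of the 23 loci that did not pass, AT3G03410 was at -0.20 and AT5G04170 at 0.20, the ends of their range. AT3G10190 had equal means in both groups, with a 95% interval of the log2 difference from -0.37 to 0.37.

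**Figure D4:**
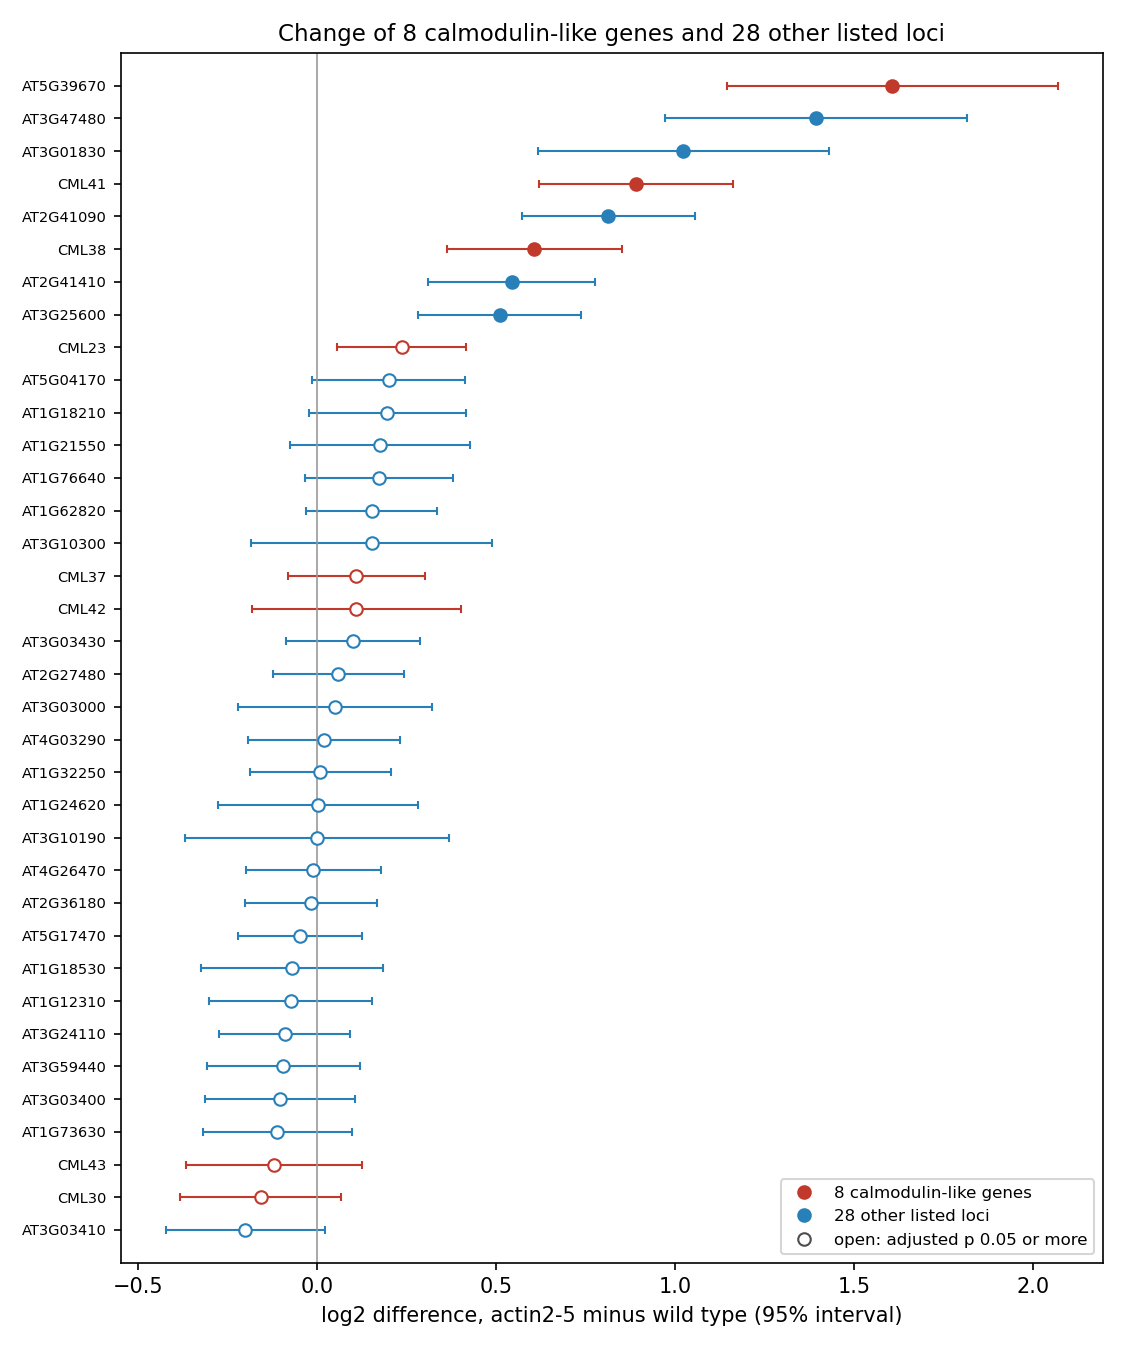
Log2 difference, actin2-5 minus wild type, with its 95% interval for the 8 calmodulin-like genes and the 28 other listed loci, ordered by size; filled points had an adjusted p under 0.05. The 8 filled points run from 0.51 for AT3G25600 to 1.61 for AT5G39670, and the open points lie between -0.20 and 0.24.

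CML38 lies next to AT1G76640, the locus listed as CML39, in the RefSeq gene order, which was looked up after the values were known. AT1G76640 read 4.42, 4.44 and 4.37 in actin2-5 and 4.30, 4.07 and 4.34 in wild type. This dim gene did not pass, at a log2 difference of 0.17 ± 0.09 (SE; limma adjusted p = 0.428), and its groups were only 0.03 apart. On the other side of CML38, AT1G76660 was at 0.20 ± 0.09 (SE; limma adjusted p = 0.336). Of the 16 places next to the 8 genes, 11 are held by a gene with a probe set named here, and 0 of these 11 passed limma's test at an adjusted p under 0.05. With 2.74% of all genes called, a count of 0 among so few says little about neighbours. AT2G15670, beside CML30, was at -0.25 with an unadjusted p of 0.0401 and an adjusted p of 0.3. For AT5G39670 neither neighbour was analysed here, and for CML41 AT3G50780 was at -0.06.

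Other calcium signalling genes were looked at by list. Glutamate receptor-like (GLR) genes encode cation channels that can admit calcium, and 1 of 8 measured members was higher in actin2-5 and 0 were lower, where 1.75% of all genes were higher and 0.988% lower. GLR2.7 read 7.10, 7.19 and 7.29 in actin2-5 and 6.40, 6.41 and 6.59 in wild type, a log2 difference of 0.73 ± 0.09 (SE; limma adjusted p = 0.00202). Its call was lost with actin2-5 arrays 1 and 3 left out (limma adjusted p = 0.169). GLR1.4, GLR3.3 and GLR2.9 were at 0.29, 0.19 and 0.19 and did not pass.

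IQD genes encode proteins that bind calmodulin through IQ motifs, many of them at microtubules. Of 15 measured members 0 passed limma's test, against 2.74% of all genes, and 3 had an unadjusted p under 0.05, against 14.1% of all genes. Their median log2 difference was -0.07, against -0.03 over all genes. IQD24 read 7.67, 7.67 and 7.60 in actin2-5 and 7.86, 8.07 and 8.12 in wild type, a difference of -0.37 ± 0.09 (SE; limma adjusted p = 0.0623). iqd32, IQD16 and IQD22 were at -0.33, -0.25 and 0.21.

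Of the genes known for induction by touch, CML38 and STZ, a zinc finger repressor of transcription, were measured under these symbols and both passed (2.74% of all genes did), CML38 being already counted above, and AT1G76640, the locus listed as CML39, did not pass, as given above. TCH2, TCH3 and TCH4 were not analysed here. STZ read 7.74, 7.74 and 8.42 in actin2-5 and 6.05, 6.75 and 6.92 in wild type, a log2 difference of 1.39 ± 0.23 (SE; limma adjusted p = 0.00909). Like CML38 it was highest on actin2-5 array 3, and it missed the threshold with the 25S covariate (limma adjusted p = 0.0931) and with actin2-5 arrays 1 and 3 left out (0.354). Calmodulins, calcium pumps, cyclic nucleotide-gated channels and the CBL, CIPK, CPK, CAX, CAMTA, CBP60 and MLO families were not analysed here.

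For each called gene, the single-gene probe sets with the most similar pattern were found by the root mean square difference over the 6 arrays, after subtraction of the wild-type mean. Nearest to AT5G39670 were AT1G10340, AT3G47480 and AT1G52000, at 0.151, 0.167 and 0.178 on the log2 scale. AT3G47480 thus stood second among all single-gene probe sets, and it is one of the CML loci listed above. AT1G10340 read 7.11, 7.44 and 7.56 in actin2-5 and 5.89, 5.54 and 5.79 in wild type.

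Nearest to CML41 was AT2G41090, at 0.0846, another of the listed CML loci. AT1G26410 and AT5G24210 followed at 0.117 and 0.12. Nearest to CML38 were AT5G43450 at 0.0636, the tetraspanin gene TET8 at 0.0883 and AT4G09760 at 0.0896. TET8 read 10.20, 10.33 and 10.56 in actin2-5 and 9.71, 10.03 and 9.75 in wild type, and like CML38 it was highest on actin2-5 array 3. These distances describe 6 arrays that share the genotype difference, and carry no test.

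**Figure D5:**
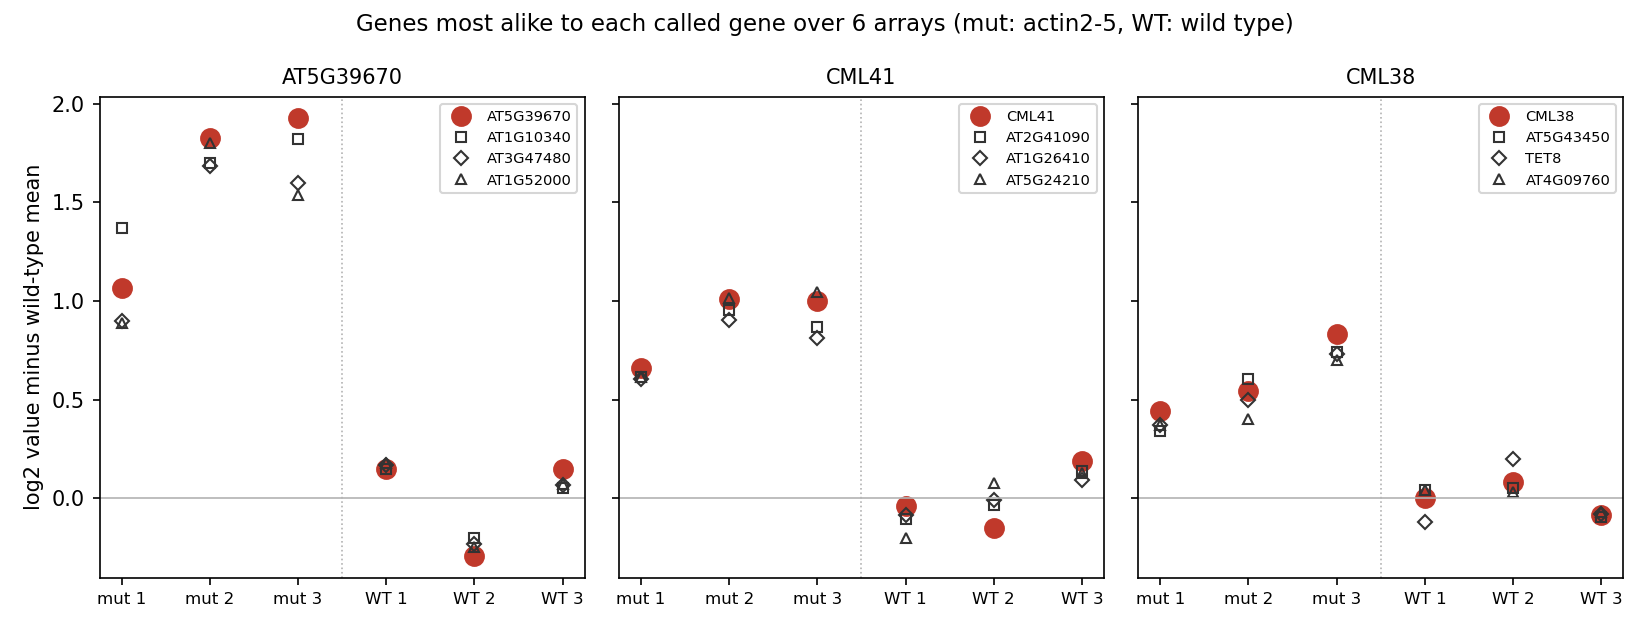
Log2 value minus the wild-type mean on each of the 6 arrays for AT5G39670, CML41 and CML38 (red) and the 3 probe sets most like each (open symbols), actin2-5 arrays left of the dotted line and wild-type arrays right. AT5G39670 and CML41 are lowest on actin2-5 array 1 among the mutant arrays, and CML38 is highest on array 3, at 0.83.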

How the data were processed

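The deposited table holds log2 expression values per probe set, made by the authors with RMA in the affy package, per the submitters' processing notes, and rounded to 2 decimals. Versions, chip definition and genome build are not known from these sources, so no coordinates are printed. Of 22810 probe sets, 64 AFFX controls were left out and 22746 tested. 13513 have 1 gene in the platform annotation, 503 several and 8730 none. Symbols were updated by gene ID through RefSeq's TAIR10.1 table, where 13436 were found. A gene was read by its probe set with the highest mean. The number of arrays, 3 per group, limits precision.

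The test of actin2-5 against wild type was that of limma 3.58.1 (R 4.3.3), two-sided, by lmFit and eBayes with Benjamini-Hochberg adjustment over all probe sets tested. The procedure was tested on simulated data. That simulation used independent noise per probe set and changes of a single size, larger than that measured for CML38. It held no differences between whole arrays, so it does not cover the unequal 25S readings. Figures used matplotlib 3.10.9. The members and lists were chosen with earlier results of these data known. Named were all members, up to 4 genes with the smallest p per list, and the 3 most alike probe sets per called member. Alternatives were 2 normalizations, array weights, a robust prior with a trend, 2 filters on dim probe sets, a replicate block, a 25S covariate, each array left out, an adjusted p under 0.01, control probe sets kept, and membership rules. Leaving out actin2-5 arrays 1 and 3, and every alternative for the called genes of the lists, were added after seeing the data.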

Additional observations from a re-analysis of the deposited data

How the results depend on the processing

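With each array left out in turn, called members numbered 2 to 3, called probe sets 290 to 896 and called genes 134 to 461, the lowest without actin2-5 replicate 2 (replicate 3 gave 307 and 139). AT5G39670 stayed called in 15 of 15 alternatives (log2 1.45 to 1.88), CML41 in 14 of 15 (0.82 to 1.01) and CML38 in 10 of 15 (0.49 to 0.69). CML43 turned sign without wild-type replicate 3 (leaving out 1 array gave -0.197 to 0.0033). Called members were 0 with the filter on means above the median, which removes all 3 by construction, and 1 with actin2-5 arrays 1 and 3 left out, where 103 probe sets and 42 genes passed. With the 25S covariate 283 probe sets, 129 genes and 2 members passed, and at an adjusted p under 0.01 it was 323, 149 and 2. The 3 calls were unchanged with the replicate block, where 907 probe sets and 458 genes were called, against 750 and 366 without it. Same-number deviations correlated at 0.062, 0.087 and 0.083, and different-number pairs were not compared with them. The reported fit did not take the numbers as pairs, and whether equal numbers share anything was not tested. Causes were not tested beyond what construction shows. For CML37, under the lower quartile on all 6 arrays, a missing call says little.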
